A study of Mus musculus with 3 samples.

Results

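Open chromatin was examined over 9 nuclear genes of mitochondrial fusion, fission and mitophagy in kidney cells of mice with a point mutation in the mitochondrial trnE gene, with endothelium set against tubule cells. The genes were taken by their function, with no measured value in the rule: Opa1, Opa3, Mfn1, Mfn2, Dnm1l, Fis1, Pink1, Bnip3 and Bnip3l, all found among the 34614 genes that could be placed on the mouse build mm10. The assay was mtscATAC-seq, in which a transposase cuts accessible DNA in fixed, permeabilised single cells. The 3 libraries used all carry the mutation, which changes the mitochondrial tRNA for glutamate: old replicate 1 at 75 weeks of age with a mutation load labelled 75%, old replicate 2 at 75 weeks with a load of 80%, and 1 young library at 3 weeks with a load of 80%. The names of the files of old replicate 1 hold the number 80, whose meaning is not stated, so its load rests on the label alone. Where a class has 3 values they follow that order. No kidney without the mutation was analysed here, and the labels give neither strain nor sex. They also do not state that the old libraries are from different animals, so the p-values measure only a spread between libraries that may be technical.

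Mitochondria fuse and divide continuously. Mfn1 and Mfn2 are GTPases that join the outer membranes and Opa1 is the GTPase that joins the inner ones, while Dnm1l is the dynamin-related GTPase that cuts the organelle and Fis1 is an outer membrane protein of the fission machinery. Damaged mitochondria are removed by mitophagy, either through the kinase Pink1, which marks them for removal, or through the outer membrane receptors Bnip3 and Bnip3l (also called NIX), which bind the autophagosome directly and are known targets of the hypoxia response. Opa3 is a mitochondrial membrane protein whose human gene is mutated in an inherited optic atrophy. In the kidney, proximal tubule cells are dense with mitochondria that power solute transport, whereas endothelium is known for its reliance on glycolysis.

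The libraries held 5656, 4302 and 4440 barcodes, of which 5315, 3950 and 3976 were kept, and pairs of libraries shared 28 to 39 barcodes. Clusters were named from marker genes and not from the listed mitochondrial genes, whose regions were left out of the clustering. Endothelium-like cells (endothelium from here on) numbered 189, 104 and 50, with 2012513, 780001 and 571587 counts. Tubule-like cells, that is proximal tubule with loop to collecting duct cells, numbered 309, 3830 and 3530, with 5629268, 48425555 and 81236271 counts. Old replicate 1 stood apart, since 61.7% of its cells were macrophage or dendritic cell-like and 23.1% were T or NK cell-like, so results are also given without it. The endothelium markers were above tubule cells in every library for 15 of 18 genes (not for Emcn, Robo4 and Cldn5). Their summed level was 2763, 1845 and 1011 CPM (counts-per-million) in endothelium, lowest in the young library. In tubule cells it was 209.3 to 244.5 CPM, here over all peaks of a library. Proximal tubule markers summed to 300.9, 209.1 and 373.7 CPM in endothelium, highest in the young library, and 1104 to 1626 CPM in tubule cells. Of these markers 13 of 16 were below tubule cells in every library (not Cubn, Slc5a2 and Kap). Cubn was higher in endothelium in old replicate 1 and the young library, at 153.7 and 100.5 CPM against 99.8 and 62.6 CPM in tubule cells. Kap and Miox were at 0 in endothelium, but Kap, like Slc5a2, was also at 0 in tubule cells of old replicate 1. Podocyte markers summed to 659.5 to 1090 CPM in endothelium and 652.6 to 732.6 CPM in tubule cells, with none at 0, and macrophage markers to 194.3 to 292.0 and 152.1 to 284.7 CPM, with Lyz2 at 0 in endothelium. The part of such signal from other cells in the results was not tested.

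The level of a gene is the count over peaks that overlap its body with 2 kb on each side, in regions with a peak in every library (common regions), given as CPM of the class over all common regions. Fold changes are fitted by edgeR's quasi-likelihood test on the summed counts with library as a block, and adjusted p-values are two-sided, by the Benjamini-Hochberg method over all genes or regions tested, with 0.05 as the threshold. Fitted log2 folds lie about 0.14 below the ratios of plain CPM because the fit rescales the libraries. A start region overlaps an annotated gene start, whereas the alternative at the gene start alone counts every common region within 2 kb of a start.

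Endothelium differed from tubule cells most clearly at the related mitophagy receptors, and in opposite directions. Bnip3 was 2.61-fold less open in endothelium and Bnip3l was 1.71-fold more open. The Bnip3 fold includes gene body regions open mainly in tubule cells. Its start region did not pass by itself in the fit of regions (log2 fold -0.58, adjusted p = 0.0712). Fis1 and Opa3 were higher by smaller folds and Mfn1 was lower, while Opa1, Mfn2, Dnm1l and Pink1 did not pass the test. In all, 3 of the 9 genes were higher, where 16.7% of the 22030 genes tested were, and 2 were lower, where 23.4% of all genes were. The median log2 fold was -0.07 over the 9 genes and -0.06 over all genes tested.

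**Figure D1:**
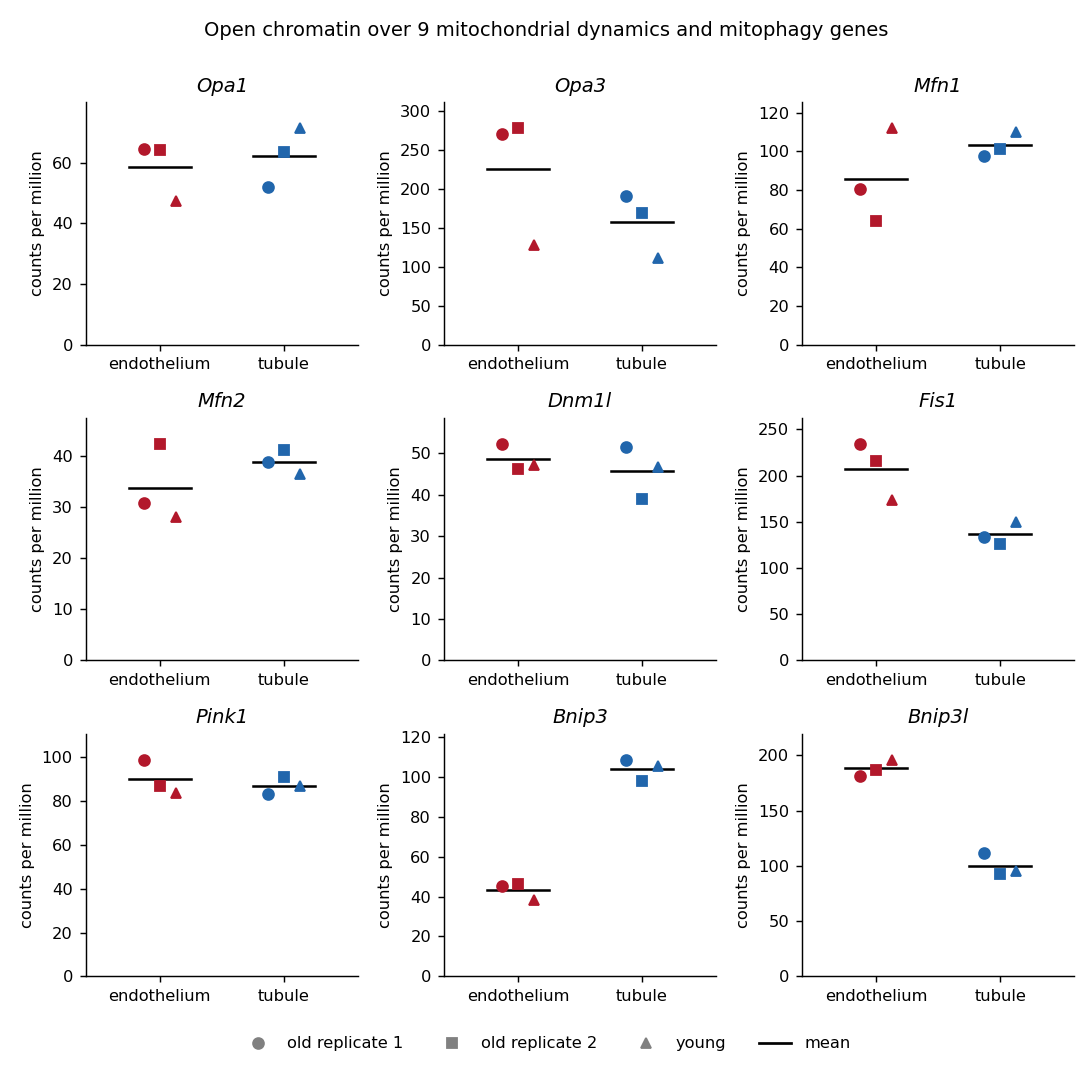
CPM over each of the 9 genes (vertical axes, starting at 0) in endothelium and tubule cells; each symbol is 1 library and the line is the mean of the 3. The classes do not overlap for Bnip3, Bnip3l and Fis1 (whose count includes a region shared with Cldn15), and overlap for the other 6 genes. The share of all genes without overlap was not counted.

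Bnip3 (chromosome 7, 138890836 to 138909506) had 45.2, 46.1 and 38.5 CPM in endothelium, against 108.5, 97.7 and 105.5 CPM in tubule cells. Every endothelium value lay far under every tubule value, and the means were 43.3 ± 4.18 and 103.9 ± 5.55 CPM (SD, n = 3 libraries each). The fitted log2 fold was -1.39 (SE 0.17, adjusted p = 2.07e-05). It passed in each of the 19 alternatives run, between -1.56 and -1.001, and was -1.45 without old replicate 1 (adjusted p = 2.68e-05).

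Bnip3l (chromosome 14, 66985238 to 67008877) had 181.4, 187.2 and 195.9 CPM in endothelium, against 111.7, 92.8 and 95.3 CPM in tubule cells. Here the endothelium values were the higher ones in every library and the classes again did not overlap, with means of 188.2 ± 7.30 and 99.9 ± 10.3 CPM (SD, n = 3 libraries each). The log2 fold was 0.77 (SE 0.13, adjusted p = 0.00035), and it passed in all 18 alternatives that could be computed, from 0.61 to 0.89. Without old replicate 1 it was 0.83 (adjusted p = 0.000525).

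Pink1 (chromosome 4, 138313409 to 138326296), the kinase that marks damaged mitochondria, had 98.9, 87.2 and 84.0 CPM in endothelium and 83.5, 91.0 and 87.0 CPM in tubule cells. The classes overlapped and the log2 fold was -0.07 (SE 0.16, adjusted p = 0.737).

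Among the fission genes, Fis1 (chromosome 5, 136953275 to 136966234) had 234.0, 215.4 and 173.2 CPM in endothelium, against 133.9, 126.5 and 150.1 CPM in tubule cells. The classes did not overlap, though the young library held the lowest endothelium value and the highest tubule value. The log2 fold was 0.48 (SE 0.15, adjusted p = 0.0176). The call was lost without old replicate 1 (0.31, adjusted p = 0.218), without old replicate 2 (0.40, adjusted p = 0.122), and when only regions of no other gene were counted (0.27, adjusted p = 0.244). Against the loop to collecting duct alone it was 0.33 (adjusted p = 0.138). One of its 4 common regions is shared with Cldn15, which codes for a tight junction claudin. That region had 56.0 CPM in young endothelium and 9.45 CPM in young tubule cells, so the lack of overlap between the classes rests on it. Dnm1l (chromosome 16, 16312228 to 16359038) had 52.2, 46.1 and 47.2 CPM in endothelium and 51.5, 39.0 and 46.6 CPM in tubule cells. These ranges overlapped and the log2 fold was -0.04 (SE 0.21, adjusted p = 0.884).

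Among the fusion genes, Mfn1 (chromosome 3, 32529443 to 32579225) had 80.5, 64.1 and 112.0 CPM in endothelium, against 97.9, 101.5 and 110.0 CPM in tubule cells. The young library had nearly equal values in both classes while the old ones were lower in endothelium, so the classes overlapped. The log2 fold was -0.43 (SE 0.16, adjusted p = 0.0465), and it did not pass without old replicate 1 (-0.51, adjusted p = 0.0768) or without old replicate 2 (-0.27, adjusted p = 0.348). Against loop to collecting duct cells alone the direction turned, to 0.33 (adjusted p = 0.291). Mfn2 (chromosome 4, 147873586 to 147904909) had 30.8, 42.3 and 28.0 CPM in endothelium and 38.9, 41.1 and 36.4 CPM in tubule cells, overlapping ranges with a log2 fold of -0.35 (SE 0.24, adjusted p = 0.272).

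Opa1 (chromosome 16, 29579281 to 29663127) had 64.6, 64.1 and 47.2 CPM in endothelium and 51.9, 63.4 and 71.3 CPM in tubule cells. The order of the classes differed between libraries, endothelium being higher in old replicate 1 and lower in the young library, and the log2 fold was -0.17 (SE 0.20, adjusted p = 0.552). Opa3 (chromosome 7, 19228389 to 19246817) had 270.8, 278.2 and 127.7 CPM in endothelium, against 191.3, 169.8 and 111.8 CPM in tubule cells. Endothelium was higher in each library, but the young endothelium lay under both old tubule values. The log2 fold was 0.36 (SE 0.14, adjusted p = 0.049), just inside the threshold, and 6 of 19 alternatives kept the call; without old replicate 1 it was 0.29 (adjusted p = 0.248), and without old replicate 2 it was 0.24 (adjusted p = 0.365).

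**Figure D2:**
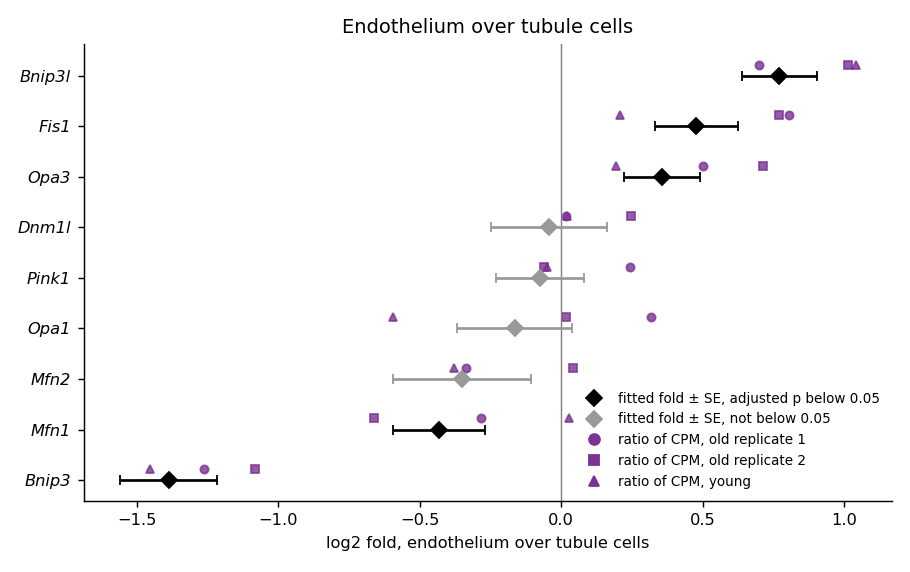
Log2 fold of endothelium over tubule cells for the 9 genes. Diamonds are the fitted fold with its SE (black where the adjusted p is below 0.05) and the small symbols above them are the plain CPM ratio in each library, which runs from -1.45 to -1.08 for Bnip3 and from 0.70 to 1.04 for Bnip3l.

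Each gene was then resolved into its regions, to see which stretch of chromatin carried the difference. The 9 genes overlapped 62 merged regions, of which 29 were common and 26 had enough counts to test. Of these, 5 were higher in endothelium, where 10.1% of the 60998 regions tested were, and 8 were lower, where 26.7% of all regions were. The median log2 fold over all regions was -0.58, and -0.73 with RLE scaling, and it differed by place, at 0.19 for regions at a gene start and -0.89 elsewhere. The lower regions all lay away from a gene start. Tubule cells were 97.0% of the cells of old replicate 2 and 88.8% of those of the young library. Common regions therefore come largely from peaks of tubule cells, and a region could pass the count filter through tubule counts alone. The lower calls, and the gene levels that include such regions, carry this selection, and its effect was not tested. At gene starts, 2 of 9 regions were higher and 0 were lower, while 19.0% and 12.2% of all regions at a gene start were. Elsewhere, for the 8 genes with a start in the RefSeq table, 2 of 16 regions were higher and 8 were lower, while 8.13% and 29.9% of such regions were in the whole table.

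At Bnip3 the start was open in both classes and the gene body was open in tubule cells. The start region (chr7:138909212-138910153) had 40.3, 43.6 and 24.5 CPM in endothelium and 54.0, 47.1 and 49.4 CPM in tubule cells, all tubule values being the higher ones. Its log2 fold of -0.58 (SE 0.24, adjusted p = 0.0712) did not pass, but it did with RLE scaling (-0.74, adjusted p = 0.0236) or without a filter on low counts (-0.61, adjusted p = 0.0449). This region held 89.0%, 94.4% and 63.6% of the gene's counts in endothelium, against 49.8%, 48.2% and 46.8% in tubule cells.

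Inside Bnip3, 3 further regions fell below tubule cells. The one centred 5.29 kb downstream of the start (chr7:138903759-138904668) had 0.994, 2.56 and 3.50 CPM in endothelium, against 24.2, 22.9 and 25.9 CPM in tubule cells. Only 3 fragments lay behind the endothelium values, and the ratio of tubule cells over endothelium was 13.6 on the fragment scale (95% counting interval 4.66 to 66.0; edgeR log2 fold of endothelium over tubule cells -3.75, adjusted p = 0.000319). At 11.17 kb (chr7:138897872-138898795) endothelium had 0 counts in each library, against 9.95, 13.3 and 15.2 CPM in tubule cells, which makes it at least 7.24-fold lower in endothelium at a limit of 3 fragments over the 3 libraries (adjusted p = 0.00103). At 2.31 kb (chr7:138906736-138907646) the values were 3.98, 0 and 10.5 CPM in endothelium and 20.4, 14.3 and 14.97 CPM in tubule cells (log2 fold -2.18, SE 0.72, adjusted p = 0.0253), a call lost without old replicate 1 (adjusted p = 0.0858) or without old replicate 2 (adjusted p = 0.156). Part of this region lies within 2 kb of the start, so the alternative at the gene start alone also counted it.

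These intragenic Bnip3 regions were near 0 outside the nephron as well. At 5.29 kb, loop to collecting duct cells had 16.6, 14.7 and 14.3 CPM, and macrophage or dendritic cells had 0.258 CPM in old replicate 1 and 0.748 CPM in the young library. T or NK cells, B or plasma cells and neutrophils had 0. At 11.17 kb the proximal tubule held most of the signal, with 11.7, 14.02 and 15.6 CPM, against 0, 2.67 and 0 CPM in loop to collecting duct cells. The start, in contrast, was open in every class, from 24.5 CPM in young endothelium to 148.5 CPM in the neutrophils of old replicate 1.

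Bnip3l had a simpler pattern, since 1 region held 94.9% to 100% of its counts. This region (chr14:67008402-67009329), which spans the end of the gene with the higher coordinate, had 179.4, 185.9 and 195.9 CPM in endothelium, against 110.5, 88.3 and 90.5 CPM in tubule cells. The classes did not overlap, and the log2 fold was 0.83 (SE 0.13, adjusted p = 0.000227), or 0.85 without old replicate 1 (adjusted p = 0.00108). Bnip3l has no entry in the start table.

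The sequence around the start is shown for Bnip3, whose start was open in all classes while its body was not, and for Opa3, whose start held most of its counts. The windows of 250 bases before to 50 after the start are from RefSeq (GRCm38.p6, which is mm10), 5′ to 3′ in the direction of the gene, and were matched for 8 of the 9 genes. Capitals mark ACGTG on either strand, the core of the hypoxia response element; both strands match at the same palindrome in Bnip3. Of 32544 distinct start windows, 19.7% hold it, and 4 of the 12 windows of these genes do, those of Bnip3, Opa3 and Mfn2.
Bnip3 (chr7:138909457-138909756, minus strand): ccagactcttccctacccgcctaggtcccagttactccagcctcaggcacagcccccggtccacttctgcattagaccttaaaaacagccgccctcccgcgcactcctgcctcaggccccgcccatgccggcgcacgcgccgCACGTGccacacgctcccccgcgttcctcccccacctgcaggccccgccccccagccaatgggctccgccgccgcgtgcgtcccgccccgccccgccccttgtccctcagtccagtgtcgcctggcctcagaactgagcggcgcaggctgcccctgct
Opa3 (chr7:19228139-19228438, plus strand): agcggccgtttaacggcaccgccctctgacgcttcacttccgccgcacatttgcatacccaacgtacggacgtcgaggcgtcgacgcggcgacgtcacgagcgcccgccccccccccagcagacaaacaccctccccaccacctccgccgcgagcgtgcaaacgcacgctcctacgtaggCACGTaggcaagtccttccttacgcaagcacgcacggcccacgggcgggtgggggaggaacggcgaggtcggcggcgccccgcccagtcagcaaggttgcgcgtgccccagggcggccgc

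**Figure D3:**
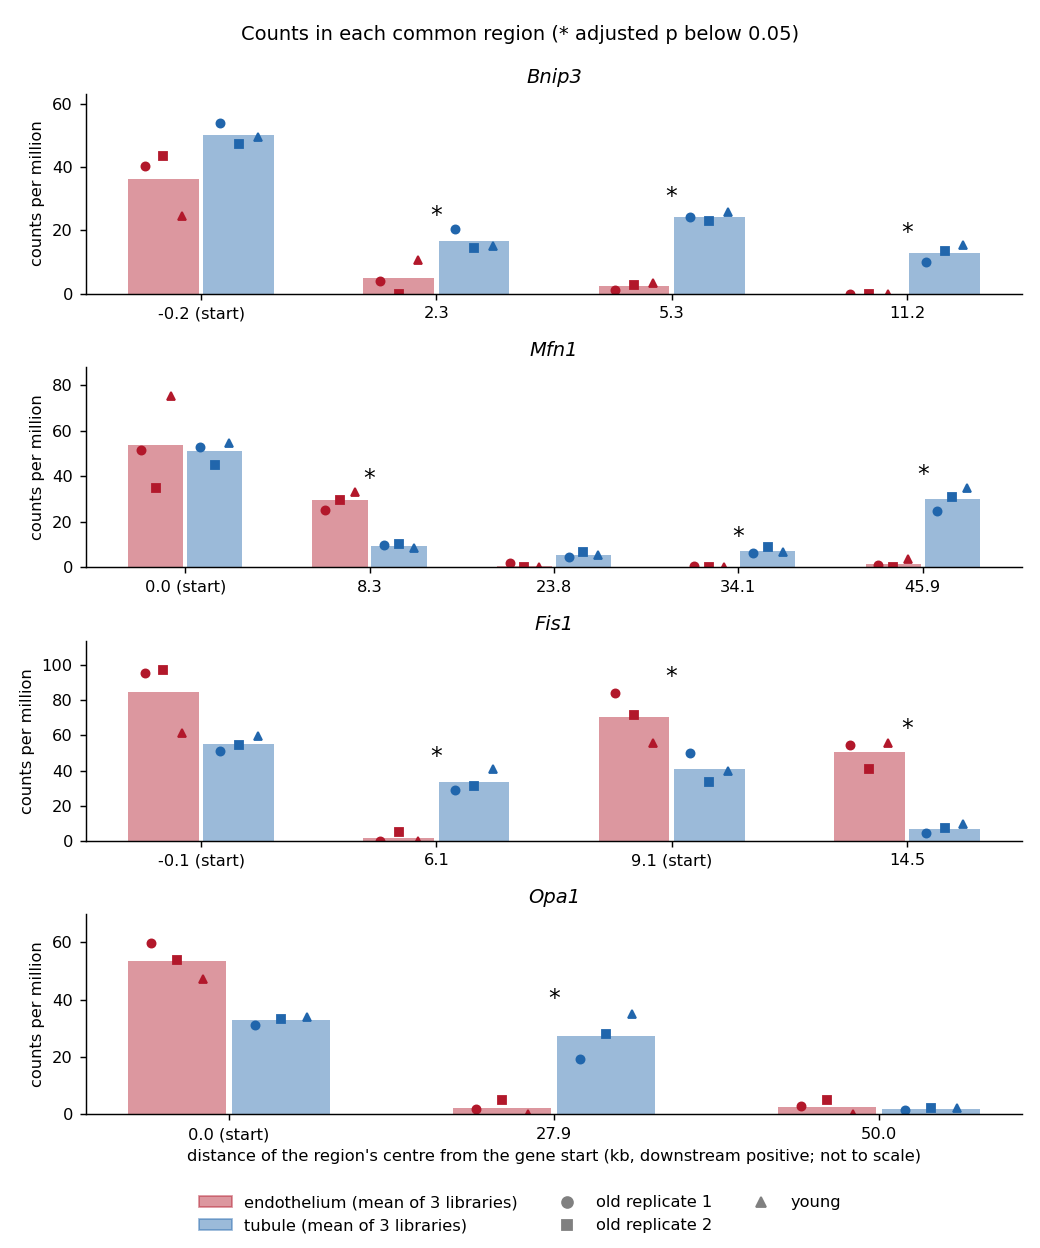
CPM in each common region of Bnip3, Mfn1, Fis1 and Opa1, in order of distance from the gene start; bars are the means of 3 libraries, symbols the libraries, and a star marks an adjusted p below 0.05. For Bnip3 at 5.29 and 11.17 kb the endothelium values are at 3.50 CPM or less and the tubule values at 9.95 CPM or more.

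Fis1 held regions that moved in opposite directions. Its first start region (chr5:136952748-136953621) had 95.4, 97.4 and 61.2 CPM in endothelium and 51.0, 54.8 and 59.9 CPM in tubule cells (log2 fold 0.51, SE 0.21, adjusted p = 0.0673), and the young values were nearly the same in both classes. A second annotated start 9.09 kb downstream (chr5:136961874-136962859) had 84.0, 71.8 and 56.0 CPM in endothelium, against 49.7, 33.4 and 39.7 CPM in tubule cells. The classes did not overlap (log2 fold 0.67, SE 0.20, adjusted p = 0.0159), but the call was lost without old replicate 1 (adjusted p = 0.18), without old replicate 2 (adjusted p = 0.119) and with RLE scaling (adjusted p = 0.0565).

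Between these starts, at 6.12 kb (chr5:136958934-136959851), Fis1 had 0, 5.13 and 0 CPM in endothelium, against 29.0, 31.3 and 41.0 CPM in tubule cells. The 2 fragments in endothelium give a ratio of tubule cells over endothelium of 29.0 (95% counting interval 8.03 to 239.6; adjusted p = 0.000169). Loop to collecting duct cells had 55.9, 43.7 and 63.9 CPM there, above the proximal tubule at 24.2, 30.4 and 40.5 CPM in every library. The region at 14.52 kb (chr5:136967312-136968285), past the end of Fis1 and shared with Cldn15, had 54.7, 41.0 and 56.0 CPM in endothelium, against 4.26, 7.04 and 9.45 CPM in tubule cells (log2 fold 2.77, SE 0.37, adjusted p = 4.67e-05). A neighbouring region (chr5:136966083-136966918), with a peak in the old libraries alone and so outside the tests, had 84.5 and 89.7 CPM in endothelium of the old libraries, against 3.20 and 2.79 CPM in tubule cells. Which of the neighbouring genes these regions serve cannot be read from the counts.

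The 2 Fis1 start windows are shown because both starts were open in both classes. Capitals mark CCGGAAG on either strand, the site bound by ETS factors. It is in 8.91% of all start windows, and in 4 of the 12 windows of these genes, those of Fis1, Mfn1 and Dnm1l.
Fis1 first start (chr5:136953025-136953324, plus strand): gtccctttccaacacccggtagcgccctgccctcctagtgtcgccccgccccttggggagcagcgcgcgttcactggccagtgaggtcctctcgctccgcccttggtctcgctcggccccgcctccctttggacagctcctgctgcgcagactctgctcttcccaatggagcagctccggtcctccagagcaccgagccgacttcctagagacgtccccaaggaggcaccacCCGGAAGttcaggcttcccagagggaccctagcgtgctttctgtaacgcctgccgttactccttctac
Fis1 second start (chr5:136961827-136962126, plus strand): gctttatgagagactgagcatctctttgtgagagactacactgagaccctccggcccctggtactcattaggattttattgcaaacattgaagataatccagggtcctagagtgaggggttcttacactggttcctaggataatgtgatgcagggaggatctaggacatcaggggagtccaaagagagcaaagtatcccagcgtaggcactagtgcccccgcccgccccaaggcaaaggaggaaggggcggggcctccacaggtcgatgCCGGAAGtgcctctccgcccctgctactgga

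Mfn1 likewise combined both directions. Its start (chr3:32528993-32529914) had 51.7, 34.6 and 75.2 CPM in endothelium and 52.9, 44.96 and 54.8 CPM in tubule cells, with no order between the classes (log2 fold -0.10, SE 0.21, adjusted p = 0.758). At 8.30 kb (chr3:32537331-32538243) endothelium was higher, with 25.3, 29.5 and 33.2 CPM against 9.77, 10.1 and 8.55 CPM in tubule cells (log2 fold 1.49, SE 0.43, adjusted p = 0.0122, and 0.0632 without old replicate 2). That region had at most 0.207 CPM in any immune class. At 45.85 kb (chr3:32574867-32575791) endothelium had 0.994, 0 and 3.50 CPM, against 24.5, 30.8 and 34.9 CPM in tubule cells, and the 2 fragments give a ratio of tubule cells over endothelium of 25.6 (95% counting interval 7.09 to 211.6; adjusted p = 7.93e-05). The signal there was from the proximal tubule, at 28.8, 32.4 and 35.8 CPM, while loop to collecting duct cells had 0, 5.34 and 1.53 CPM. At 34.07 kb (chr3:32563092-32564003) the values were 0.497, 0 and 0 CPM in endothelium and 6.39, 8.96 and 6.54 CPM in tubule cells, a ratio of tubule cells over endothelium of 12.6 from 1 fragment (95% counting interval 2.26 to 496.7; adjusted p = 0.0086, and 0.0694 without old replicate 2).

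Opa1 held regions of opposite direction. The start (chr16:29578871-29579771) had 59.6, 53.9 and 47.2 CPM in endothelium, against 31.1, 33.4 and 33.9 CPM in tubule cells; the classes did not overlap, yet the log2 fold of 0.59 (SE 0.23, adjusted p = 0.0555) did not pass, though it did in 2 alternatives. The region at 27.94 kb (chr16:29606739-29607803) went the other way, with 1.99, 5.13 and 0 CPM in endothelium against 19.4, 27.9 and 35.1 CPM in tubule cells (log2 fold -3.49, SE 0.63, adjusted p = 0.000559). Only 4 fragments lay behind the endothelium values, and the ratio of tubule cells over endothelium was 11.6 (95% counting interval 4.54 to 42.7). Counted over common regions within 2 kb of the start alone, with the gene fit, Opa1 had a log2 fold of 0.42 (adjusted p = 0.161).

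The starts of Mfn2, Dnm1l and Pink1 did not pass the test. Mfn2 had 30.8, 42.3 and 28.0 CPM in endothelium and 31.4, 30.1 and 31.3 CPM in tubule cells at its start (chr4:147904407-147905352; log2 fold -0.01, adjusted p = 0.983). Its only called region, at 4.30 kb (chr4:147900125-147901093), had 0 counts in endothelium against 7.46, 11.1 and 5.12 CPM in tubule cells, at least 4.46-fold lower in endothelium at the limit of 3 fragments (adjusted p = 0.00469). The single common region of Dnm1l, at its start (chr16:16358463-16359389), had a log2 fold of -0.03 (SE 0.21, adjusted p = 0.925). At Pink1 the start (chr4:138326164-138326830) had 13.9, 15.4 and 10.50 CPM in endothelium and 15.6, 22.8 and 24.5 CPM in tubule cells. All endothelium values were the lower ones, with a log2 fold of -0.71 (SE 0.45, adjusted p = 0.237). The adjacent region centred 0.58 kb downstream (chr4:138325310-138326116) went the other way, with 61.6, 56.4 and 59.5 CPM in endothelium. Tubule cells had 44.1, 37.8 and 39.3 CPM there (log2 fold 0.42, SE 0.20, adjusted p = 0.112). It held 62.3%, 64.7% and 70.8% of the Pink1 counts in endothelium. In edgeR 0 of the 5 tested regions of Pink1 passed. The region shared with Ddost (log2 fold -2.56, adjusted p = 0.0522) passed in 4 alternatives.

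The start of Opa3 (chr7:19227874-19228994), the window printed above, had 238.0, 267.9 and 113.7 CPM in endothelium, against 174.6, 149.1 and 96.6 CPM in tubule cells. It held 86.4% to 96.3% of the gene's counts, and counted at the start alone, with the gene fit, Opa3 had a log2 fold of 0.23 (adjusted p = 0.181). In the fit of regions its log2 fold was 0.40 (SE 0.14, adjusted p = 0.0374), and it did not pass with RLE scaling (0.25, adjusted p = 0.202), without old replicate 1 (0.32, adjusted p = 0.323) or without old replicate 2 (0.26, adjusted p = 0.276).

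Levels of a gene across all cell classes were set out for libraries with at least 20 cells of the class. Endothelium was at the low end for Bnip3 and near the high end for Bnip3l. For Bnip3, endothelium (38.5 to 46.1 CPM) overlapped T or NK cells (40.0 CPM in old replicate 1 and 34.0 CPM in the young library) and B or plasma cells (55.3 and 45.1 CPM). Loop to collecting duct cells followed with 85.6, 82.0 and 90.5 CPM, then the proximal tubule with 112.6, 98.8 and 105.8 CPM, which overlapped macrophage or dendritic cells (97.3 and 133.9 CPM), and the neutrophils of old replicate 1 were highest at 148.5 CPM.

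For Bnip3l only the neutrophils of old replicate 1 (208.6 CPM) lay above endothelium. T or NK cells had 151.6 CPM in old replicate 1 and 133.7 CPM in the young library, and B or plasma cells (146.0 and 126.7 CPM) and macrophage or dendritic cells (132.2 and 134.6 CPM) overlapped them. Both tubule classes lay lowest and overlapped each other, the loop to collecting duct at 121.2, 84.4 and 122.1 CPM and the proximal tubule at 110.1, 93.4 and 94.6 CPM. Neutrophils were high for both receptors, whereas endothelium was high for Bnip3l alone.

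Fis1 was highest in endothelium in every library, counting the region past its end that is shared with Cldn15. That region had 54.7, 41.0 and 56.0 CPM in endothelium and 0, 1.33 and 1.02 CPM in loop to collecting duct cells. In the young library this exceeds the gap between these classes (173.2 and 163.5 CPM), so the order there rests on that region. The tubule classes came next, with 166.4, 139.4 and 163.5 CPM in the loop to collecting duct and 128.2, 125.6 and 149.8 CPM in the proximal tubule, and the immune classes lay between 38.5 and 117.6 CPM. Opa3 ran the other way: the neutrophils of old replicate 1 had 581.5 CPM, T or NK cells 425.4 CPM in old replicate 1 and 303.7 CPM in the young library, and both tubule classes were lowest within each library. Dnm1l was highest in B or plasma cells (100.7 and 66.5 CPM) and T or NK cells (87.7 and 90.7 CPM), above the 38.7 to 53.0 CPM of both tubule classes. Per kb of common region, the mean level in endothelium was highest for Opa3 (107.6 CPM per kb), followed by Bnip3l (84.9), Fis1 (55.3) and Dnm1l (52.3), with Bnip3 the lowest of the 9 at 11.7 CPM per kb.

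**Figure D4:**
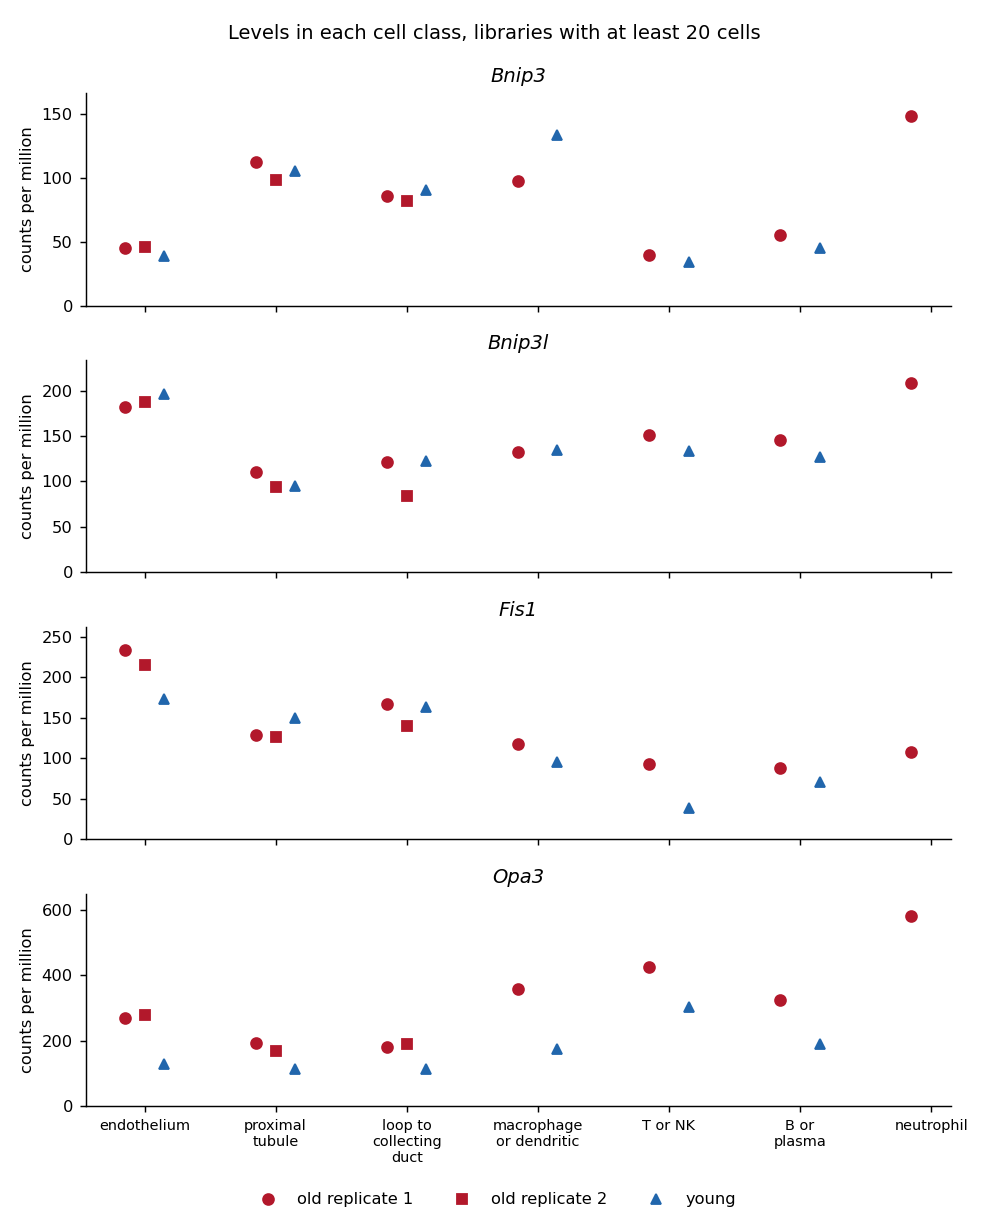
CPM over Bnip3, Bnip3l, Fis1 and Opa3 in 7 cell classes; each symbol is 1 library with at least 20 cells of the class, red for old and blue for young. Endothelium is low for Bnip3 and high for Bnip3l and Fis1, and the old symbols of Opa3 are above the young one in each class that has both. The Fis1 level includes a region shared with Cldn15.

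Within the tubule, the loop to collecting duct was compared with the proximal tubule, a comparison added after the data had been seen. Mfn1 was lower in the loop to collecting duct, at 49.9, 69.4 and 70.0 CPM against 106.3, 103.6 and 111.0 CPM in the proximal tubule. The groups did not overlap (log2 fold -0.83, SE 0.13, adjusted p = 0.000104). Bnip3 was lower as well (log2 fold -0.39, SE 0.11, adjusted p = 0.0156), though not without old replicate 2 (-0.38, adjusted p = 0.162). Thus 2 of 9 genes were lower, where 18.0% of the 22060 genes tested were, and 0 of the 9 were higher in edgeR's test, where 12.6% were. An unadjusted p under 0.05 was found for 2 of the 9, the same lower genes, and for 8588 of all genes tested. No other tool was run here.

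Age was compared within each class, old libraries over the single young one, so the spread comes from the old pair alone. Different clusters held most of the proximal tubule by library: cluster 0 held 1986 cells of old replicate 2, and clusters 1 and 3 held 1475 and 1259 young cells. In tubule cells 0 of the 9 genes passed in edgeR, where 0.81% of 22959 genes did, and DESeq2 called 0 of the 9. In simulated counts the edgeR test recovered 26% of log2 changes of 1 and 100% of those of 2, so smaller changes could be missed. An unadjusted p under 0.05 in edgeR was found for 1 of the 9, and for 1327 of all genes tested. That gene was Opa3, at 191.3 and 169.8 CPM in old tubule cells and 111.8 CPM in young tubule cells, with both old values the higher ones (log2 fold 0.67, SE 0.20, adjusted p = 0.0684). The other 8 had log2 folds between -0.31 and 0.12.

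In endothelium Opa3 was 2.15-fold higher in the old libraries, at 270.8 and 278.2 CPM in old endothelium and 127.7 CPM in young endothelium (log2 fold 1.11, SE 0.25, adjusted p = 0.0107). It was the 1 gene of the 9 to pass, where 0.172% of 17416 genes were higher. The size of the fold hardly moved between alternatives, from 1.04 to 1.15, but the call held only with RLE scaling; DESeq2 gave an adjusted p of 0.987, every peak of a library 0.404 and no filter on low counts 0.307. The other 8 had log2 folds from -0.60 for Mfn1 to 0.45 for Opa1. In simulated counts the edgeR test recovered 12% of log2 changes of 1 in endothelium and 68.7% of those of 2, so changes could be missed. The young endothelium rests on 50 cells. It had the lowest sum of endothelium markers and the highest sum of proximal tubule markers among the endothelium sums. What this does to comparisons with the young endothelium was not tested.

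Opa3 was also higher in old than in young cells of the other classes, given as values because each rests on few libraries and the classes share them. Loop to collecting duct cells had 180.7 and 190.5 CPM in the old libraries and 114.0 CPM in the young one. Old replicate 1 and the young library had 359.8 and 175.0 CPM in macrophage or dendritic cells, 425.4 and 303.7 CPM in T or NK cells, and 324.7 and 188.9 CPM in B or plasma cells. In every one of these the old value was the higher. Age and library cannot be told apart with 1 young library.

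Whether the difference between endothelium and tubule cells itself changed with age was tested as an interaction. In edgeR 0 of the 9 genes passed, where 0.177% of 22030 genes did, and DESeq2 was not run for the interaction. In simulated counts this test recovered 0% of log2 changes of 1 and 43% of those of 2. The lack of calls therefore does not show a lack of change. An unadjusted p under 0.05 was found for 1 of the 9, and for 1817 of all genes tested. That gene was Fis1, whose difference was larger in the old libraries with an interaction of 0.63 in log2 units (SE 0.27; adjusted p = 0.509). Opa1 had an interaction of 0.82 (SE 0.42, adjusted p = 0.617).

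The other genes of the pathway were taken from 4 lists of 69 genes, all of which were tested. In endothelium 9 of them were higher and 13 were lower than in tubule cells, set against 16.7% and 23.4% of all genes, and the median log2 fold was 0.10. Of the 17 genes of fusion and inner membrane shaping 1 was higher and 3 lower, of the 14 fission genes 3 were higher and 1 lower, of the 33 mitophagy genes 5 were higher and 7 lower, and of the 5 transport genes 0 were higher and 2 lower. The medians of these lists were 0.03, 0.27, 0.12 and -0.46.

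The largest fold among the higher genes was at Inf2, a formin that builds actin at sites of fission. It had 111.8, 92.3 and 45.5 CPM in endothelium, against 13.2, 16.6 and 12.6 CPM in tubule cells (log2 fold 2.37, SE 0.27, adjusted p = 9.2e-06), though 1 or more of its 3 common regions is shared with Adssl1. The other higher fission genes were Marchf5, a ubiquitin ligase of the outer membrane (0.73, with its 1 common region shared with Cpeb3), and Mtfr1l, a fission regulator (0.58). Spire1, an actin nucleator that works with Inf2, was lower (-1.01). Among fusion genes Miga2, an outer membrane protein that promotes fusion, was higher (0.69), while Pld6, a mitochondrial phospholipase needed for fusion, was lower (-2.76 from few counts, with 0.994, 0 and 6.998 CPM in endothelium and 13.3, 10.0 and 11.6 CPM in tubule cells), as was Chchd3 of the cristae junction complex (-0.67).

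Among mitophagy genes, those lower in endothelium included Nipsnap1, which marks damaged mitochondria for autophagy (-1.26), Ambra1, an autophagy regulator (-1.21), Gabarapl1, an autophagosome protein (-0.98), Vdac1, the outer membrane channel (-0.88), and the receptor Bcl2l13 (-0.68). Higher were the hypoxia-linked receptor Fundc1 (0.69), the import receptor Tomm70a (0.63), Tomm7, which holds Pink1 at the import pore (0.62), Tbc1d15, a Rab7 regulator (0.58), and the autophagosome protein Gabarap (0.54). Rhot2, a GTPase that ties mitochondria to motors, was lower (-0.72). Of the 22 called genes of these lists 13 passed without old replicate 1, 12 without old replicate 2 and 7 against the loop to collecting duct alone. At the gene start alone 8 of 19 passed, and with regions of no other gene 18 of 20. Gabarap, Gabarapl1, Marchf5 and Vdac1 lost the call or could not be tested with regions of no other gene. In any alternative 0 of the called genes turned direction.

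**Figure D5:**
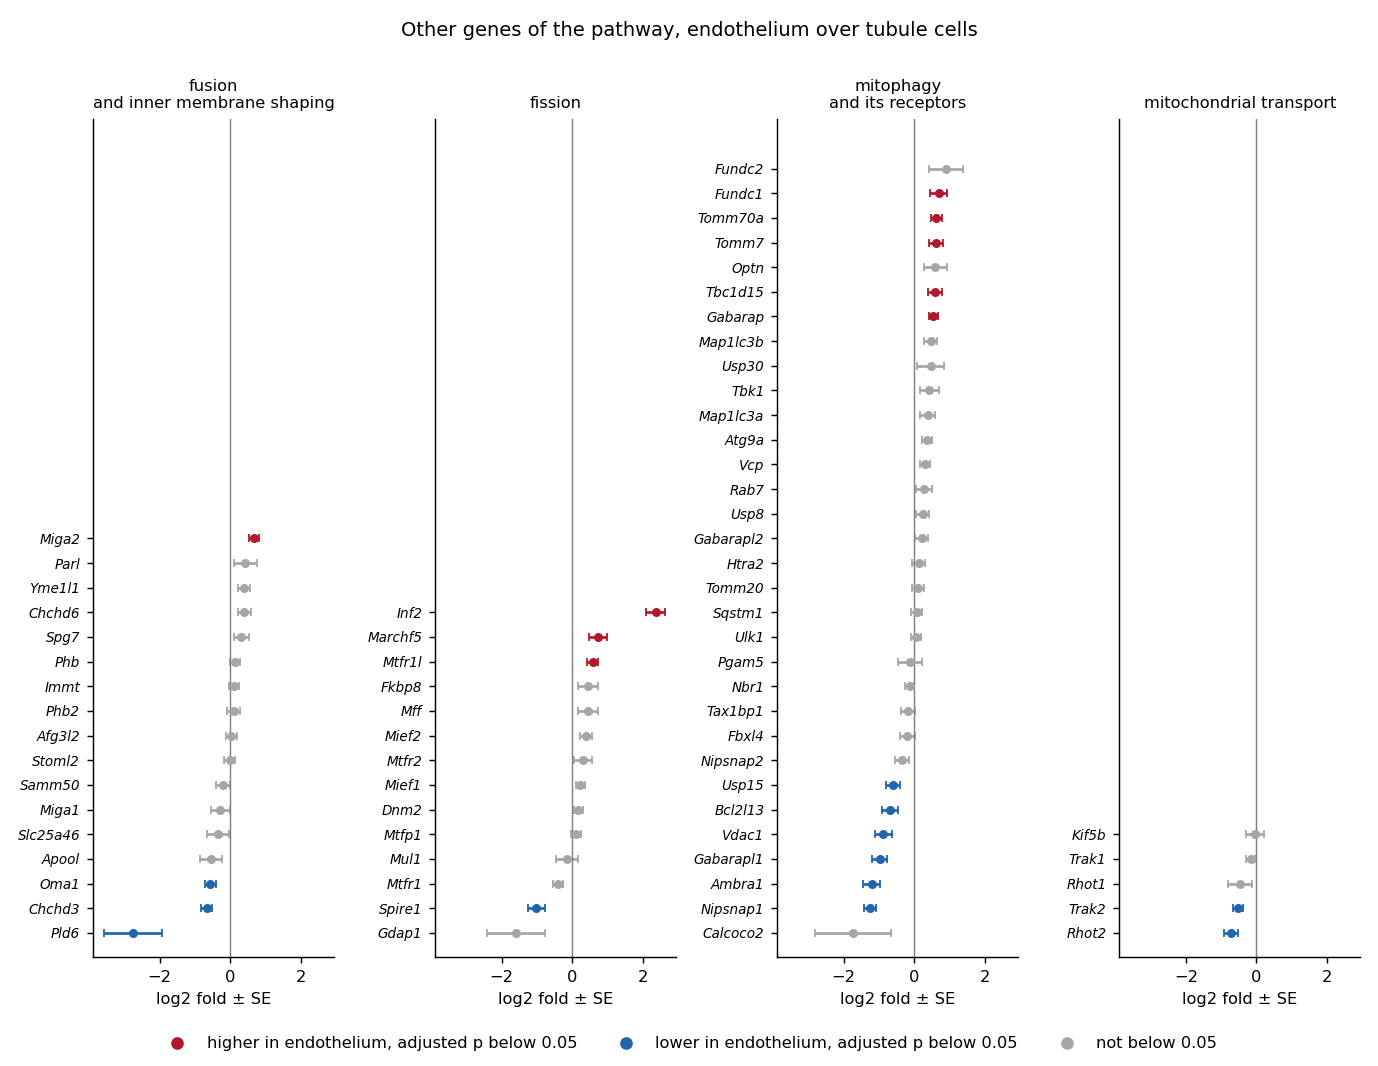
Fitted log2 fold of endothelium over tubule cells with its SE for the other genes of the pathway that are reported, by list; red and blue mark higher and lower at an adjusted p below 0.05 and grey the rest. Inf2 lies far to the right at 2.37, and no transport gene is called higher.

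Finally, for each of the 9 genes the gene with the most similar levels was sought among 9866 genes over 16 sums of a library and a class, leaving out genes that share a counted region. The sums share libraries and depth, so the correlation is a description. The closest were Gpsm2 for Opa1 (Pearson r = 0.93), Gm31813 for Opa3 (0.94), Ankrd13c for Mfn1 (0.87), Slc50a1 for Mfn2 (0.86), Gm40406 for Dnm1l (0.91), Gm11946 for Fis1 (0.93), Tmem201 for Pink1 (0.73), Notch2 for Bnip3 (0.86) and Gm40345 for Bnip3l (0.92).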

How the data were processed

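Groups were taken from the sample titles. The authors deposited raw counts, a matrix of cut sites in peaks by cells for every library, each with its own peak set; per the submitters' processing notes they used Cell Ranger ATAC 2.1.0 on mm10. Most deposited values are even since a fragment has 2 ends, so intervals and limits use fragments (count over 2, rounded up) and cover counting error only. Total counts were 96093221, 64729297 and 110871506, with medians of 16288.5, 13338.5 and 23319.5 per barcode.

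Peaks overlapping by at least 1 bp were merged (bedtools 2.31.1) into 250005 regions, of which 72317 had a peak in every library. Barcodes under 1000 counts were dropped, and the barcodes most like simulated doublets were removed, at 0.8% for every 1000 barcodes (4.46%, 3.26% and 3.28%). Regions open in at least 1% of cells, less 253 of the listed genes, were reduced to 30 components of latent semantic indexing and clustered by the Leiden method (20 neighbours, resolution 1.0, seed 7, scikit-learn 1.9.0, leidenalg 0.10.2), giving 20 clusters. A cluster was named where at least 3 markers of 1 set were raised (log2 fold of 1 or more over the median cluster, 10 CPM or more, and a mean fold at least 0.25 above that of the next set, with progenitor, proliferation and injury sets not used for naming). No other class could have more markers among the 10 leading genes. A shallow cluster with none of its own markers there got no name, as for the cluster with a relative depth of 0.14. This scoring replaced a first version once the clusters were known, in which short marker sets with genes shared along the tubule scored above the proximal tubule set; 0, 7 and 61 cells have no name. Cluster 14, proximal tubule cells nearly all from old libraries, was left out in an alternative.

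Counts were summed per library and class, filtered by filterByExpr, scaled by TMM and tested with edgeR 4.0.16 (R 4.3.3), with the library as a block because both classes come from the same library, with DESeq2 1.42.0 as an alternative; the code was tested on simulated data. Genes and start windows came from RefSeq tables of GRCm38.p6. The 9 genes are named in every comparison; of the 69 others those past the threshold, at most 10 in each direction; and of the regions those past it and those at a gene start. Members, lists and tests were chosen with earlier results of these data known. Motifs and intervals were chosen after the values had been seen. One gene of the mitophagy list is in its counts and is not reported here by name.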

Additional observations from a re-analysis of the deposited data

How the results depend on the processing

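The calls of Bnip3 and Bnip3l held in every alternative, while Fis1 kept its call in 14 of 19, Mfn1 in 8 and Opa3 in 6, and the 4 genes without a call gained none; with no replicate block Opa3 (0.43, adjusted p = 0.167) and Mfn1 (-0.45, adjusted p = 0.0509) lost their calls and the other 7 genes did not change sides. The endothelium over tubule counts moved by more than 1.5 times at the gene start alone (1668 higher, 2501 lower, of 14426 genes) and against the loop to collecting duct alone (2235 higher, 3146 lower); leaving out 1 library gave 2232 to 3728 higher and 3889 to 5251 lower. Age counts were far less stable: in tubule cells 129 higher and 57 lower became 48 and 14 with DESeq2, 0 and 0 with every peak, 67 and 25 in the proximal tubule alone and 18 and 15 without cluster 14, an alternative added after seeing the data. In endothelium 30 and 24 became 3 and 0 with DESeq2, and 0 and 0 with every peak or without a filter. The interaction had 6 and 33, and 1 and 12 with RLE scaling. Leaving out 1 library gave 3314 to 7027 higher regions, and 1562 to 2916 genes higher in the loop to collecting duct over the proximal tubule.

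Direction turned for values without a call and for Mfn1 against the loop to collecting duct (0.33). For endothelium over tubule cells Opa1 was 0.42 at the start and -0.45 to 0.059 without 1 library, Dnm1l was 0.088 against the loop, 0.074 without cluster 14 and 0.079 with regions of no other gene, and Pink1 was 0.15 with such regions. With age in tubule cells Pink1 was 0.02 with every peak, 0.024 in the proximal tubule and 0.074 without cluster 14. In the loop over the proximal tubule, leaving out 1 library gave -0.15 to 0.026 for Mfn2, -0.093 to 0.15 for Pink1 and -0.13 to 0.19 for Bnip3l, and Opa1 passed without old replicate 1 (-0.43, adjusted p = 0.0234). Among regions, leaving out 1 library gave -0.11 to 0.083 at the start of Dnm1l, -0.21 to 0.10 at that of Mfn1, -0.18 to 0.18 at that of Mfn2, -1.20 to 0.35 for Pink1 at 7.70 kb (0.13 with no replicate block) and -0.82 to 0.41 for Opa3 at 11.21 kb (0.16 with no replicate block). The cause was not tested. Leaving out an old library in the age comparisons leaves 1 library a group and gives a value with no test.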
